A study of Mus musculus with 6 samples.

Results

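The microRNAs (miRNAs) described here belong to the imprinted Dlk1-Dio3 locus of mouse chromosome 12. Members were the mouse probes carrying 1 of 43 listed miRNA names, with or without a suffix for the 3p or 5p arm and without a star; 55 of 1096 mouse probes matched, from 43 hairpins, and 12 names had a probe for each arm. Levels were measured by 1-colour arrays on liver RNA of 6 samples: 3 hepatocellular carcinomas (HCC 1, 2-1 and 2-2) and 2 non-tumour livers (NT 1 and 2), all from STAM mice, and 1 liver labelled normal, from a control animal. STAM mice receive streptozotocin (STZ) and a high-fat diet and pass through non-alcoholic steatohepatitis; the labels state that HCC develops at 18 weeks of age, give a C57BL6 background for all 3 groups and repeat the same STAM text for the control, whose own treatment and age they do not state. The labels do not say whether HCC 2-1 and HCC 2-2 came from separate animals, or which NT and HCC samples shared an animal, so p-values measure only the spread between these samples. Normal liver has 1 array and no replicate check. The 3 groups share 1 estimate of the spread, which comes from the HCC and NT arrays alone. P-values and SEs against normal liver therefore hold no variation among normal livers.

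The locus is imprinted: its maternal chromosome carries the non-coding transcripts that the miRNA hairpins are cut from, while the paternal chromosome expresses the protein-coding genes Dlk1, Rtl1 and Dio3. The hairpins lie opposite Rtl1, in Rian and in and around Mirg, and are thought to be processed from long maternal transcripts. The cluster is known as abundant in embryo, placenta and brain and low in adult liver, and mouse studies have linked its miRNAs to liver tumours.

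MiRNAs act through the seed, bases 2 to 8 from the 5′ end, which pairs with target messages. The sequences of the members above background on all 6 arrays are shown because only these 6 could be followed above the blanks in every sample. They are mature sequences from RefSeq (GRCm38.p6) in order along the locus, with the seed in capitals; miR-487b, also above background on every array, had no entry.
miR-665-3p, chr12:109586368-109586387, plus strand: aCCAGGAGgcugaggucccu
miR-370-3p, chr12:109618305-109618326, plus strand: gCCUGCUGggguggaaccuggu
miR-323-5p, chr12:109712523-109712544, plus strand: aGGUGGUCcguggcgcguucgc
miR-494-3p, chr12:109715367-109715388, plus strand: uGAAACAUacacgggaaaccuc
miR-667-3p, chr12:109720061-109720083, plus strand: uGACACCUgccacccagcccaag
The next set holds 8 of the members whose highest normalized value fell on HCC 1, picked after their values were seen.
miR-127-3p, chr12:109592888-109592909, plus strand: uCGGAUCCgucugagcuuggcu
miR-379-5p, chr12:109709065-109709085, plus strand: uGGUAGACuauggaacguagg
miR-411-5p, chr12:109710190-109710210, plus strand: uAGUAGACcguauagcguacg
miR-376b-3p, chr12:109723508-109723528, plus strand: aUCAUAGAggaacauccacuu
miR-376a-3p, chr12:109723824-109723844, plus strand: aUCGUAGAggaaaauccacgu
miR-300-3p, chr12:109724363-109724384, plus strand: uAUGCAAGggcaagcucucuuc
miR-381-3p, chr12:109726870-109726891, plus strand: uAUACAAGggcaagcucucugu
miR-541-5p, chr12:109742422-109742446, plus strand: aAGGGAUUcugauguuggucacacu
None of the 51 members with a RefSeq sequence shared a seed. Counted from 1 at the 5′ end of the first-named miRNA, the seeds of miR-300 and miR-381 differed by G4A, and their 22 compared bases were identical at 19. The seeds of miR-376a and miR-376b differed by G4A too, with 18 of 21 bases identical, and those of miR-411 and miR-379 differed by A2G. Probes for such pairs could share signal, which was not tested.

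A spot counted as above background where its intensity exceeded the mean plus 2 SD of the blank spots of its array. Of the 55 members, 25 (45.5%) on HCC 1, 22 (40.0%) on HCC 2-1 and 13 (23.6%) on HCC 2-2 passed, against 10 (18.2%) on NT 1, 12 (21.8%) on NT 2 and 10 (18.2%) in normal liver. The HCC 1 count includes 1 spot marked not OK, that of miR-434-5p, and was 24 without it. Over all mouse probes the share was 44.4%, 48.0% and 49.3% on the HCC arrays, 43.6% and 44.7% on the NT arrays and 36.8% in normal liver. The members' share was thus below that of all mouse probes on HCC 2-1, HCC 2-2, both NT arrays and normal liver, and near it on HCC 1. Viral miRNA probes, designed for miRNAs that mice do not encode, passed at 38.5%, 46.2% and 46.2% on HCC, 48.7% and 38.5% on NT and 25.6% in normal liver, and blank spots at 4.2% to 8.7%. Passing this limit is a weak criterion for the presence of a miRNA.

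**Figure D1:**
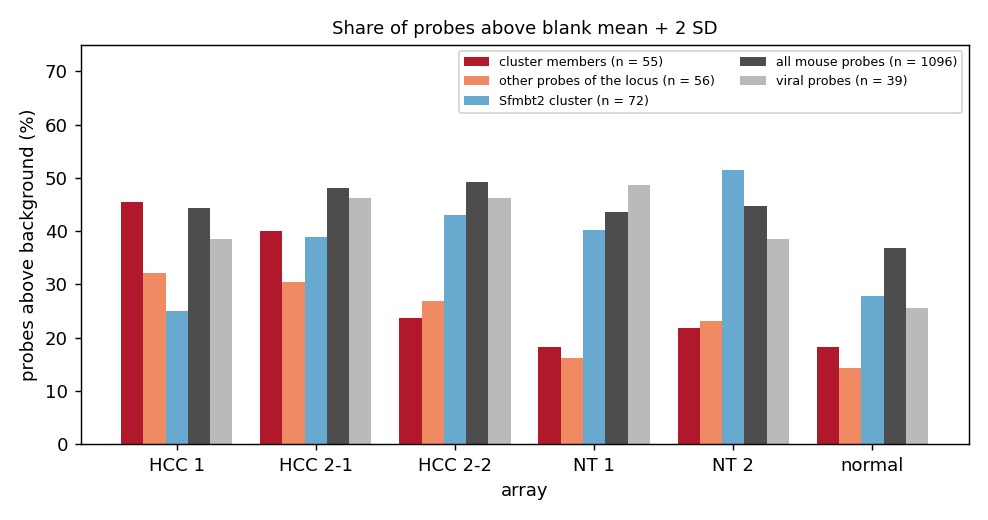
Share of probes (%) above the blank mean plus 2 SD on each array, by probe set. Cluster members reach 45.5% on HCC 1 and 18.2% in normal liver, while all mouse probes lie between 36.8% and 49.3%.

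The counts on the HCC arrays depended on the threshold. With all blanks in the mean and SD, 20, 8 and 6 members passed on HCC 1, 2-1 and 2-2, against 8 on NT 1, 12 on NT 2 and 7 in normal liver, so that HCC 2-1 and 2-2 lay below NT 2. With a limit of 3 SD, the counts were 14, 8 and 5 on HCC 1, 2-1 and 2-2, 8 on each NT array and 7 in normal liver. HCC 1 kept the highest count of members under each limit. The share over all mouse probes was not counted under the other limits, so these counts have no background beside them. Under the first limit the members' share on HCC 1 was near that of all mouse probes (45.5% against 44.4%). By position, 6 of 14 members within Rtl1, 2 of 2 within Rian, 14 of 29 between Rian and Mirg and 3 of 10 within Mirg passed on HCC 1 under that limit.

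Over the 6 arrays, 6 members (10.9%) passed on every array, against 25.7% of all mouse probes and 20.5% of viral probes. A further 29 passed on 1 to 5 arrays and 20 (36.4%) on none, against 26.4% of all mouse probes and 23.1% of viral probes. The 20 include miR-136, miR-431 and miR-433 opposite Rtl1, and miR-382, miR-410 and miR-495 further along. Over all arrays they lay between -1.12 and 1.55 blank SDs from the blank mean for miR-136, -1.12 and 0.63 for miR-431, -2.45 and 0.79 for miR-433, -1.06 and 1.55 for miR-382, -1.68 and 0.79 for miR-410 and -2.45 and 1.55 for miR-495. Among the members with a sequence, median GC content was 65.2% for the 5 that passed on all arrays (range 45.5% to 72.7%), 50% for those that passed on 1 to 5 and 47.8% for those that passed on none, a description over few sequences.

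**Figure D2:**
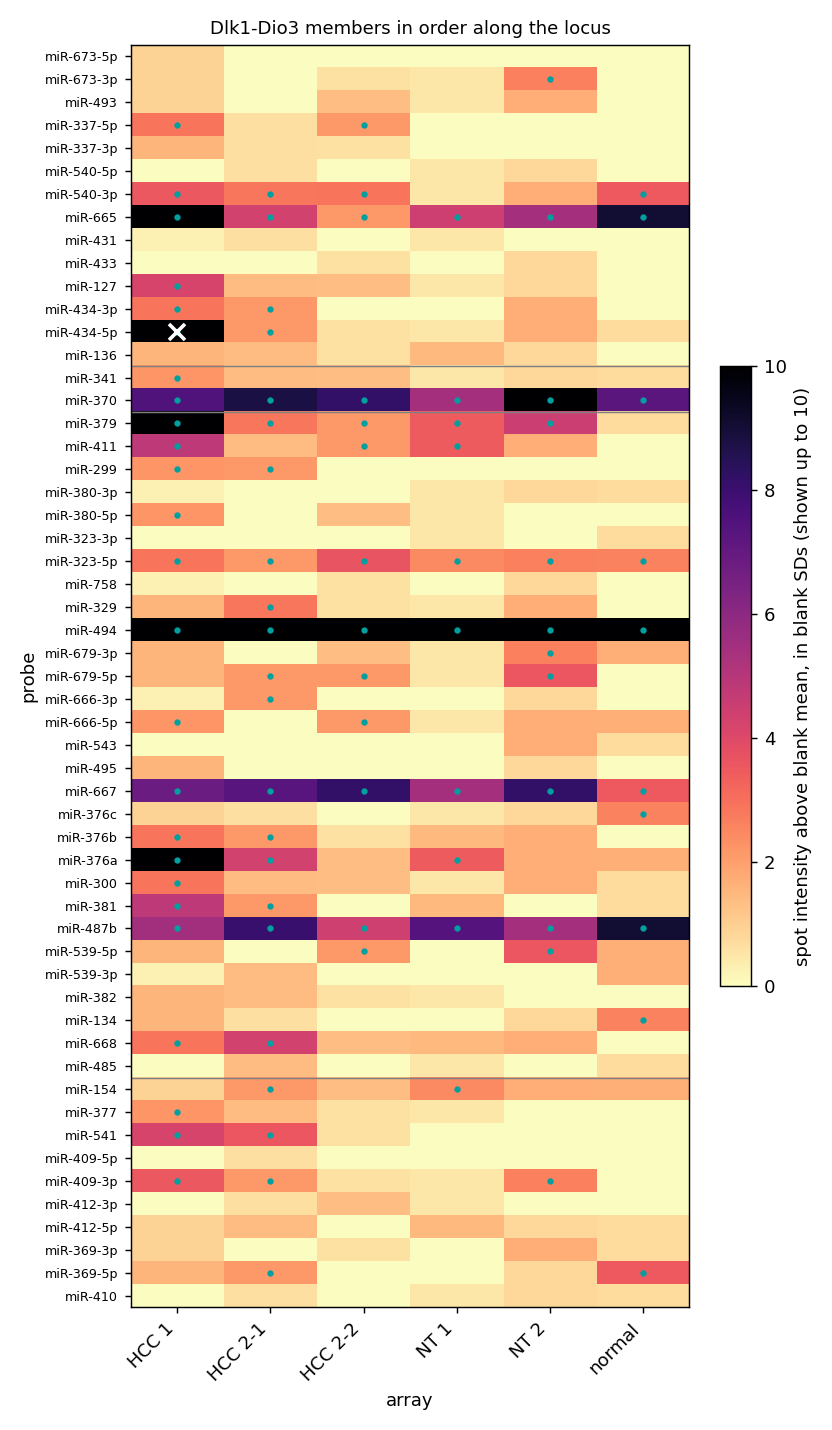
Spot intensity above the blank mean, in blank SDs (colour, shown up to 10), for each member (rows, in order along the locus) on each array (columns). Teal points mark spots above background, the white cross marks the miR-434-5p spot recorded as not OK, and grey lines part members by host transcript; miR-494 is dark throughout and HCC 1 holds the most marked spots.

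For tests, log2 intensities were quantile normalized between arrays. An added offset of 50 compresses the differences of dim probes toward 0, so a member at blank level lies near 5.8. The 23 members above background on at least 2 arrays were tested within a limma fit over 613 probes. A further member, miR-434-5p, met that limit but was left out because its HCC 1 spot was marked not OK; it lay 20.6 blank SDs above the blanks there, at 2.11 and 0.6 on HCC 2-1 and 2-2, at 0.49 and 1.71 on NT 1 and 2, and at 0.73 in normal liver. The other arm of that hairpin, miR-434-3p, lay at 2.87, 2.11 and -0.92 blank SDs on HCC 1, 2-1 and 2-2, at -1.47 and 1.71 on NT 1 and 2, and at -0.19 in normal liver. A member that passed through the group where it is high had to differ, so counts over these 23 are descriptive.

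MiR-494 (mmu-miR-494) was far above the blanks on every array: 124, 103 and 132 blank SDs on HCC 1, 2-1 and 2-2, 110 and 106 on NT 1 and 2, and 124 in normal liver. Its log2 intensity was 7.79, 7.48 and 7.42 on HCC 1, 2-1 and 2-2, 7.68 and 7.22 on NT 1 and 2, and 8.13 in normal liver. HCC and NT overlapped, and normal liver was above all 5 STAM arrays. HCC averaged 7.56 ± 0.20 (SD, n = 3) and NT 7.45 ± 0.32 (SD, n = 2), a difference of 0.12 ± 0.18 (SE; limma adjusted p = 0.891). This difference was 0.57 with the chip as a block, where only HCC 1 against NT 2 on their shared chip informs it. It was 0.36 and 0.32 with each array scaled to an equal median and upper quartile over all mouse probes, and -0.11 without NT 2. Against normal liver the difference was -0.57 ± 0.23 for HCC (limma adjusted p = 0.323) and -0.68 ± 0.25 for NT (limma adjusted p = 0.380); none passed the threshold of 0.05. With the equal median and upper quartile scalings, HCC minus normal turned to 0.21 and 0.14 and NT minus normal was -0.16 and -0.18. With the chip as a block they were 0.12 and -0.45. Blocked so, NT minus normal rests on NT 1 against normal liver alone, and HCC minus normal adds HCC 1 against NT 2 to it. In the authors' deposited table miR-494 was 691, 615 and 703 on HCC, 680 and 564 on NT and 772 in normal liver. Over the 6 arrays, the tested probes whose pattern was most like that of miR-494 were miR-1187 (Pearson r = 0.937), miR-664* (0.930) and miR-709 (0.927), a description over arrays that share chips.

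MiR-370 (mmu-miR-370), in Rian, had log2 intensities of 5.96, 6.0 and 5.97 on HCC 1, 2-1 and 2-2, 5.91 and 6.03 on NT 1 and 2, and 6.02 in normal liver. NT spanned the HCC and normal values, and the 3 HCC arrays lay below normal liver. MiR-665, opposite Rtl1, had 6.04, 5.88 and 5.77 on HCC, 5.88 and 5.90 on NT and 6.15 in normal liver, which was above the other 5 arrays. Its differences were 0.013 ± 0.086 for HCC minus NT and -0.26 ± 0.12 for NT minus normal liver (SE; limma adjusted p = 0.977 and 0.434). MiR-487b, also highest in normal liver, had 5.90, 5.97 and 5.88 on HCC, 6.02 and 5.86 on NT and 6.10 in normal liver. MiR-667 went the other way, with 5.94, 5.97 and 5.97 on HCC, 5.88 and 5.97 on NT and 5.81 in normal liver, the lowest of the 6. For HCC minus normal liver miR-667 differed by 0.14 ± 0.050 (SE; limma unadjusted p = 0.037, adjusted p = 0.297). MiR-323-5p had 5.81, 5.79 and 5.86 on HCC, 5.84 and 5.81 on NT and 5.85 in normal liver, with no group apart.

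**Figure D3:**
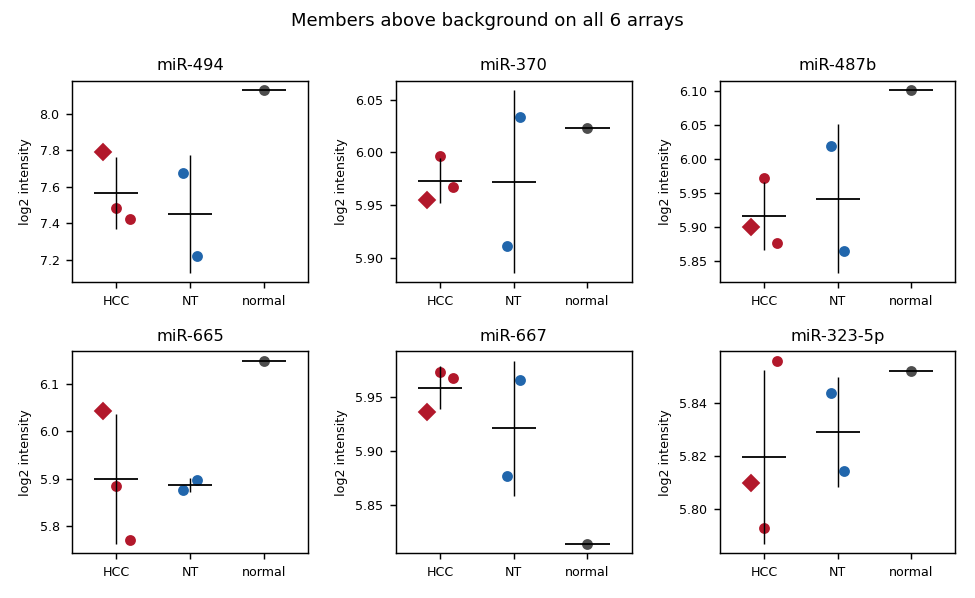
Log2 intensity of the 6 members above background on all 6 arrays, by group (HCC, NT, normal liver). Points are arrays (the diamond is HCC 1), horizontal lines are group means and vertical lines SDs; miR-494, miR-487b and miR-665 are highest in normal liver, and miR-667 is lowest there.

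The question of the HCC against NT comparison is which miRNAs differ between tumour and non-tumour liver of the model. No member passed: the smallest limma adjusted p was 0.673, and over all tested probes 0.00% were called, with 56 (9.14%) under an unadjusted p of 0.05, of which none were members. Of the 23 members, 16 were higher and 7 lower in HCC, with a median difference of 0.025 (range -0.052 to 0.12), against 313 higher and 300 lower and a median of 0.0013 over all 613 probes. The members' median depended on single arrays: it was 0.0018 without HCC 1, 0.011 without HCC 2-1, 0.048 without HCC 2-2 and 0.011 without NT 1. It turned to -0.14 and -0.26 with an equal median and upper quartile over the 282 probes above background on all arrays, beside -0.14 and -0.27 for all tested probes, and to -0.015 with an upper quartile over all mouse probes. The arrays did not overlap for 1 member (4.35%), miR-540-3p, against 23.7% of all tested probes. MiR-540-3p, opposite Rtl1, had a log2 intensity of 5.84 on each HCC array, 5.74 and 5.81 on NT 1 and 2, and 5.89 in normal liver, and HCC minus NT was 0.062 ± 0.034 (SE; limma adjusted p = 0.673). Next by unadjusted p came miR-337-5p (0.067 ± 0.047) and miR-369-5p (0.049 ± 0.038) on the higher side, and miR-154 (-0.048 ± 0.038), miR-539-5p (-0.052 ± 0.067) and miR-487b (-0.025 ± 0.061) on the lower side (differences ± SE).

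NT against normal liver asks what differs in the non-tumour liver of the model. No member passed, against 0.163% of all tested probes; the arrays did not overlap for 15 members (65.2%), against 71.8% of all tested probes, and the smallest limma adjusted p of a member was 0.364. Unadjusted p was under 0.05 for 2 members (8.70%), against 12.6% of all tested probes: miR-494, given above, and miR-679-5p. MiR-679-5p lay at 2.11 and 2.12 blank SDs on HCC 2-1 and 2-2 and 1.55 on HCC 1, at 0.49 and 3.56 on NT 1 and 2, and below the blank mean in normal liver. Normal liver was not well above background there. With it set at the lowest value above background on its array, the NT mean was 1.03-fold and the HCC mean 1.02-fold higher. These are point values, and the fitted differences did not pass (limma adjusted p = 0.364 and 0.297). Over the 23 members, 13 were higher and 10 lower in NT, with a median difference of 0.018 (range -0.68 to 0.13), against -0.0021 over all tested probes. The members' median was 0.011 without NT 1 and -0.0045 without NT 2. Named by the same order, miR-411 (0.12 ± 0.053) and miR-667 (0.11 ± 0.053) lay on the higher side and miR-540-3p (-0.11 ± 0.045) on the lower side (differences ± SE). MiR-411 was not well above background in normal liver or on NT 2. With normal liver set at the background level in the same way, the NT mean was 1.02-fold higher. For miR-540-3p, NT was not well above background, and normal liver was 1.07-fold above NT set at that level. With an equal median and upper quartile over probes above background on all arrays, NT minus normal turned to -0.050 and -0.26 for miR-411. For miR-679-5p it turned to -0.037 and -0.25.

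HCC against normal liver shares the normal array with that comparison and the HCC arrays with the first. No member passed, against 0.163% of all tested probes, and 2 members (8.70%) had an unadjusted p under 0.05, miR-679-5p and miR-667, against 16.2% of all tested probes. The arrays did not overlap for 14 members (60.9%), against 63.8% of all tested probes. Of the 23 members, 15 were higher and 8 lower in HCC, with a median of 0.026 (range -0.57 to 0.15), against 0.0055 over all tested probes; without HCC 1 the median was 0.0077. With an equal upper quartile over the 282 probes above background on all arrays, all 23 members were called lower by limma, as were most tested probes (498 called of 613), and the median was -0.63 for members and -0.61 for all tested probes. MiR-411 differed by 0.12 ± 0.050 and miR-487b by -0.18 ± 0.078 (SE; limma adjusted p = 0.323 each). For miR-487b the difference was -0.035 at an equal median over all mouse probes and -0.045 with the chip as a block. The blocked value rests only on HCC 1 against NT 2 and NT 1 against normal liver. Whether fewer expressing cells or less RNA per cell sets a level cannot be told apart in these bulk samples.

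**Figure D4:**
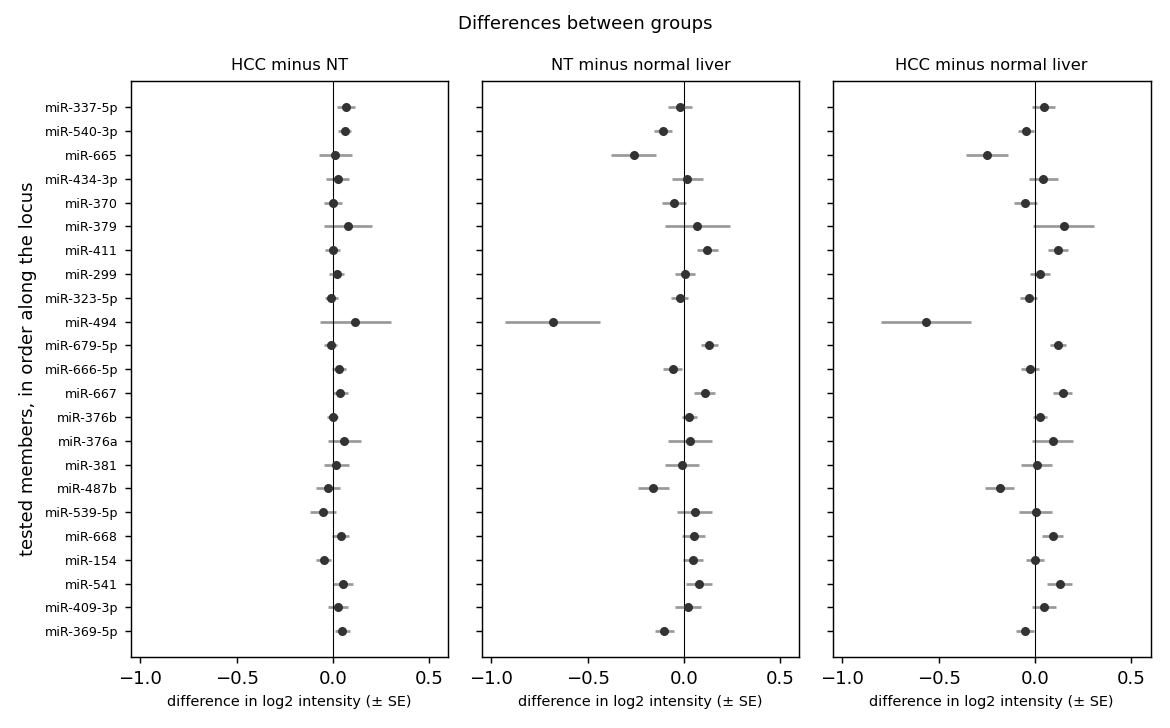
Difference in log2 intensity (± SE, horizontal axis) of the 23 tested members, in order along the locus, for HCC minus NT, NT minus normal liver and HCC minus normal liver. HCC minus NT lies between -0.052 and 0.12, and miR-494 has the lowest value against normal liver, -0.68 for NT and -0.57 for HCC.

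For several members 1 array stood apart from the rest of its group. MiR-379 (mmu-miR-379), which opens the largest run of hairpins, lay at 16.03, 2.85 and 2.12 blank SDs on HCC 1, 2-1 and 2-2, at 3.44 and 4.48 on NT 1 and 2, and at 0.73 in normal liver. In these units HCC 1 stood above the other 5 arrays, and HCC 2-1 and 2-2 lay below both NT arrays. Its log2 intensity was 6.17, 5.82 and 5.81 on HCC, 5.84 and 5.86 on NT and 5.78 in normal liver; HCC minus NT was 0.079 ± 0.12 (SE; limma adjusted p = 0.891). Normal liver was not well above background, and the fitted means were 1.11-fold higher for HCC and 1.05-fold higher for NT. These log2 differences, 0.15 ± 0.16 and 0.070 ± 0.17 (± SE), were each smaller than their SE. In the authors' deposited table miR-379 was 87.6, 15.7 and 16.9 on HCC and 15.3 and 29.9 on NT, with no value for normal liver. There HCC 2-1 and 2-2 lay between NT 1 and NT 2.

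MiR-376a (mmu-miR-376a) lay at 10.8, 4.32 and 1.36 blank SDs on HCC 1, 2-1 and 2-2, at 3.44 and 1.71 on NT 1 and 2, and at 1.66 in normal liver. Again HCC 1 was highest, and the other HCC arrays overlapped NT. Its HCC minus NT difference was 0.060 ± 0.084 (SE; limma adjusted p = 0.891). In the authors' deposited table miR-376a was 62.4, 22.0 and 7.33 on HCC and 13.7 and 15.5 on NT, with no value for normal liver.

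Further members also had their highest value on HCC 1. MiR-127 (mmu-miR-127), whose target Rtl1 lies on the opposite strand, reached 4.19 blank SDs on HCC 1, 1.37 and 1.36 on HCC 2-1 and 2-2, 0.49 and 0.79 on NT 1 and 2, and lay below the blank mean in normal liver. Only its HCC 1 spot was above background. MiR-381 reached 4.84 on HCC 1 and 2.11 on HCC 2-1 and was not above background on the other 4 arrays; miR-541 reached 4.19 and 3.59 on the same arrays and likewise on no other. MiR-411 reached 4.84 on HCC 1, against 3.44 on NT 1, and miR-376b reached 2.87 on HCC 1. MiR-341 (2.21), miR-377 (2.21) and miR-300 (2.87) passed on HCC 1 alone. Others ran differently: miR-134 and miR-376c passed in normal liver alone, at 2.58 each. MiR-409-3p lay at 3.53, 2.11 and 0.6 on HCC and 0.49 and 2.63 on NT, highest on HCC 1 in these units. Its normalized log2 value was highest on NT 2, at 5.864 against 5.860 on HCC 1.

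**Figure D5:**
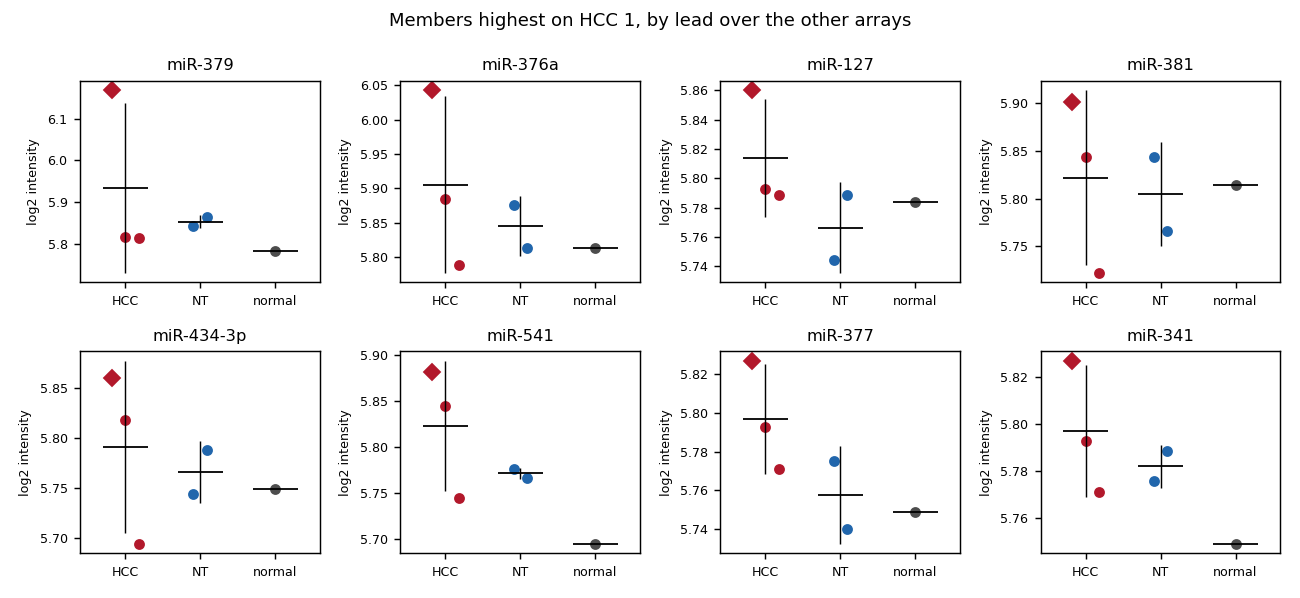
Log2 intensity by group (HCC, NT, normal liver) of 8 members whose highest value was on HCC 1, chosen by the lead of that array. Points are arrays (the diamond is HCC 1), horizontal lines group means and vertical lines SDs; each panel has its own scale, and miR-379 spans 5.78 to 6.17.

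This order was noticed in the values and then counted, so it carries no test. Among members above background on at least 1 array, 15 of 34 (44.1%) had their highest normalized value on HCC 1, against 132 of 806 mouse probes (16.4%). The count was 17 (50%) against 19.2% after cyclic loess and 18 (52.9%) against 14.8% in blank SDs. In the authors' deposited table it was 18 of 31 (58.1%) against 12.7%. In that table miR-329 and miR-377 had a value on HCC 1 alone and so counted as highest on it. It held values for 31 members on HCC 1, against 12 to 22 on the other arrays. With arrays scaled to an equal median over all mouse probes, the count was 12 (35.3%) against 16%. At an equal upper quartile over all mouse probes it was 8 (23.5%) against 12.4%. With the same scalings set over the 282 probes above background on all 6 arrays, it was lost: 2 members (5.9%) against 4.8%, and 0 against 1.4%. The order of arrays for dim members thus depended on the scaling. The count of 15 was also partly set by the filter. MiR-127, miR-300, miR-341, miR-377 and miR-380-5p entered the 34 through their HCC 1 spot alone. Of the 20 members above background on no array, 5 were highest on HCC 1 and 5 on NT 2. Of the 23 tested members, 10 were highest on HCC 1, against 98 of 613 tested probes. HCC 1 had the highest scanner gain, 41, against 39 on HCC 2-1 and 2-2 and 38 on the NT and normal arrays, and the part of gain in the order was not tested. HCC 1 shared a chip with NT 2. Between them, 16 of 23 tested members (69.6%) had a higher quantile normalized value on HCC 1, against 47.6% of all tested probes. The filter partly set this count too. MiR-299, miR-337-5p, miR-376b, miR-381, miR-434-3p, miR-541, miR-666-5p and miR-668 entered the 23 through HCC arrays alone, HCC 1 among them. Each of these was higher on HCC 1 than on NT 2.

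Of 56 other probes of the locus, mostly star arms, 18 were above background on HCC 1, 17 on HCC 2-1 and 15 on HCC 2-2, against 9 on NT 1, 13 on NT 2 and 8 in normal liver. As shares these were 32.1%, 30.4% and 26.8% on HCC, 16.1% and 23.2% on NT and 14.3% in normal liver. On every array this was below the share of all mouse probes, which lay between 36.8% and 49.3%. None of the 18 tested was called in any comparison. MiR-3072 and miR-3072*, arms of 1 hairpin, were above background on all arrays; HCC minus NT was -0.18 ± 0.13 for miR-3072 and 0.29 ± 0.11 for miR-3072* (SE; limma adjusted p = 0.745 and 0.542). The arms of the miR-494 hairpin also ran apart, at -0.68 for miR-494 and -0.0091 for miR-494* in NT minus normal liver, though miR-494* was above background on 2 arrays only. In the Sfmbt2 cluster, another set of many hairpins, HCC 1 had 18 of 72 probes above background (25%), HCC 2-1 28 and HCC 2-2 31, against 29 on NT 1, 37 on NT 2 and 20 in normal liver. This share was above that of all mouse probes on NT 2 alone (51.4% against 44.7%).

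The tissue label was checked by miR-122, the main hepatocyte miRNA, which was bright on all arrays, at 1782, 3412 and 5580 blank SDs on HCC 1, 2-1 and 2-2, 6033 and 5203 on NT and 4962 in normal liver. It was lowest on HCC 1, the array on which most members passed. Of the nerve markers, miR-9 and miR-124 were not above background on any array; 2 of 4 passed on each HCC array, 1 on each NT array and none in normal liver, with summed intensities above the blanks of 12.6 to 16.1 on HCC, 4.5 to 5.7 on NT and 2.6 in normal liver. The 7 mesenchymal and stellate cell markers passed on every array, with summed intensities of 302 to 398 on HCC, 360 to 608 on NT and 209 in normal liver. Normal liver stood further apart in blood cell markers: the 3 erythroid markers summed to 455 to 807 on HCC and 416 to 540 on NT, against 17.4 in normal liver, and the 7 leukocyte markers to 167 to 252 on HCC and 180 to 320 on NT, against 72.6. The erythroid miR-451 lay at 389, 328 and 597 blank SDs on HCC 1, 2-1 and 2-2 and 398 and 486 on NT 1 and 2, against 11.8 in normal liver. These values move with each comparison against normal liver. The part of cell makeup in the members' values was not tested.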

How the data were processed

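Per the labels, total RNA was labelled with Hy5; per the file headers, the chips were Toray mouse miRNA chips with a pair of arrays each. The deposited scanner files give raw intensity (pixel medians of spot and local background). The authors also deposited processed intensity values, which were not on a log scale. They did not follow the spot medians alone. On HCC 1, miR-323-5p and miR-434-3p each had a spot median of 22, with deposited values of 10.3 and 23.7. The reason for the empty deposited values is not known here. With limma 3.58.1 in R 4.3.3, normexp (offset 50) over all spots and quantile normalization of log2 values over 1095 mouse probes were applied. Background was the blank mean plus 2 SD after leaving out the top and bottom 5% of blanks. A 3-group limma model (moderated, two-sided) was fitted to 613 probes above it on at least 2 of 6 arrays, Benjamini-Hochberg adjusted, and tested on simulated data. The number of arrays limits precision. Members and lists were chosen with earlier results of these data known. Named members are those above background on all arrays, the 3 per direction with the smallest p in each comparison, and preset ones; those highest on HCC 1 were added after their values were seen. One chip held normal and NT 1, the next NT 2 beside HCC 1, and the last both HCC 2 samples. In all, 22 other settings were tried.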

Additional observations from a re-analysis of the deposited data

How the results depend on the processing

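No member was called in HCC minus NT or NT minus normal liver under any setting run, except 16 in HCC minus NT under a floor set aside as described in the next paragraph. In HCC minus normal liver 23 members were called under 1: scaling to an equal upper quartile over probes above background on all arrays, which called 498 of 613 probes and moved the median of all probes by -0.61. The planned wording named no probes for the percentile; all mouse probes were run first, and this form was added after that result was seen. Under it, medians of members were -0.26, -0.35 and -0.63 (HCC minus NT, NT minus normal, HCC minus normal), beside -0.27, -0.34 and -0.61 for all probes, and 15 and 9 probes were called in the first and second. At an equal median over these probes they were -0.14, -0.14 and -0.29, beside -0.14, -0.13 and -0.27, with 20, 17 and 39 probes called. Relative to all probes, members thus moved little. Named members turned negative: miR-540-3p, miR-337-5p and miR-369-5p in HCC minus NT (-0.10, -0.10, -0.13; upper quartile -0.23, -0.23, -0.25), miR-679-5p, miR-411 and miR-667 in NT minus normal (-0.037, -0.050, -0.059; -0.25, -0.26, -0.27) and HCC minus normal (-0.21, -0.21, -0.15; -0.55, -0.55, -0.49). MiR-494, miR-487b and miR-665 passed in HCC minus normal at the upper quartile (-0.47, -0.71, -0.76).

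Over all mouse probes, an equal median gave 0 called probes in NT minus normal, miR-487b 0.024 in HCC minus NT and miR-494 0.21 in HCC minus normal. An equal upper quartile gave 0 called in NT minus normal, member medians of -0.015 (HCC minus NT) and -0.021 (HCC minus normal), miR-369-5p -0.0056 and miR-494 0.14. An offset of 16 gave medians of 0.058 (HCC minus NT) and 0.067 (HCC minus normal). Testing probes above background on all 6 arrays left 6 members, with medians of -0.10 and -0.12 against normal liver for NT and HCC; the authors' values left 8, with -0.29 and -0.067, and called 5 and 14 probes. No filter called 1 probe in HCC minus NT. A trended, robust prior called 3, 5 and 8 probes. With the chip as a block, 0 probes were called against normal liver, miR-487b was 0.036 in HCC minus NT and miR-494 0.12 in HCC minus normal. Subtracting the blank level with a floor of 10 was planned as floor first, which tied 347 of 613 probes at the floor and called 367 in HCC minus NT, 350 of them with differences under 0.01; this was set aside, and normalizing first, chosen after that, left 4 members with medians of -0.69 (NT) and -0.65 (HCC) against normal liver.

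Leaving out single arrays gave 0 to 1 probes called against normal liver, member medians of 0.0018 to 0.048 (HCC minus NT), and turned miR-487b to 0.052 (without NT 1), miR-539-5p to 0.040 (without NT 2) in HCC minus NT, where miR-494 ranged from -0.11 (without NT 2) to 0.34 (without NT 1). The replicate block gave a member median of 0.031 and 0 calls. Same-numbered arrays correlated at 0.024 to 0.16 in their deviations from group means. With 2 NT arrays these deviations mirror each other (HCC 1 gave 0.16 with NT 1 and -0.16 with NT 2). The correlations could therefore neither show nor exclude pairs. At 3 SD, 14, 8 and 5 members passed on HCC 1, 2-1 and 2-2. With all blanks, 8 and 6 passed on HCC 2-1 and 2-2. The share of all mouse probes was not counted under these limits. Members highest on HCC 1 numbered 8, 2 and 0 under the upper quartile over all probes and the equal median and upper quartile over probes above background. The causes were not tested. Most members lie near the blanks, which limits what can be measured.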
